A study of Mus musculus with 40 samples.

Results

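The genes described here are the voltage-gated and related ion channel genes of the mouse, chosen by symbol. They comprised the symbols in the count table that begin with Kcn, 1 further letter and a number, with Kcnmb, Cacna, Cacnb, Cacng or Hcn and a number, or with Scn, a number and a or b. This gave 132 of 24062 genes, and left symbols such as Kcnma1, Kcnab1 and Kcnip1 to a list of channel partners. Of these, 129 encode channel subunits, and the symbols Kcnd3os, Kcnmb4os1 and Kcnq1ot1 are antisense RNAs of channel loci. Each gene was followed in every distinct library, with the question of how many channel genes that were silent in control cultures gained counts with doxorubicin in every genotype.

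Voltage-gated channels open and close with the membrane potential and carry the potassium, sodium and calcium currents of nerve, heart and muscle. Potassium channels set the resting potential and end the action potential, sodium channels start it, calcium channels couple it to contraction and secretion, and Hcn channels carry the pacemaker current. Fibroblasts do not fire action potentials, but they hold potassium and calcium channels that take part in volume control and calcium signalling.

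The cultures were mouse embryonic fibroblasts (MEFs) of passage 3 from embryos of 13.5 dpc, strain Mixed C57BL/6J-129P2OlaHsd, with Sall2 intact (WT), lost from 1 allele (Het) or lost from both (KO). RNA-seq counts came from 5 control libraries (1 WT, 1 Het and 3 KO embryos) and from cultures given 1 µM doxorubicin, a drug that breaks DNA, for 16 h (1 WT, 1 Het and 2 KO embryos). The table held a further KO doxorubicin column, labelled KO embryo 3 and identical to that of KO embryo 2 at every gene, which was left out. Which of these embryos gave the counts cannot be told from the columns, and they were read as KO embryo 2 throughout. Sall2 had been targeted in 129P2 embryonic stem cells. The paper reports variants from these cells around the locus in KO and, as heterozygous calls, in the Het littermate. It also reports 129P2 variants on other chromosomes of this line. WT and Het had a single embryo each.

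Values per library are listed throughout in the order WT, Het and KO embryos 1, 2 and 3 for control, and WT, Het and KO embryos 1 and 2 for doxorubicin. Sall2 itself had 756, 587, 388, 432 and 424 counts in control and 188, 164, 76 and 81 with doxorubicin. In counts, the KO libraries were below WT and Het within each treatment, and every doxorubicin library was below every control library. Scaled to depth, the KO embryo 2 control (24.3 CPM) was not below the Het control. Library totals ran from 15560728 to 24122414 counts. A floor of 3 counts corresponded to 0.123 to 0.168 CPM, the counts divided by the library total in units of 1e6 reads after trimmed-mean scaling. These floors, and the counting intervals given with ratios, cover counting error alone.

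The fibroblast label was compared with 10 fibroblast markers. All 10 were tested, and their summed level was 50371, 11604, 43584, 51457 and 10488 CPM in control and 37361, 12783, 35832 and 32295 CPM with doxorubicin. Col1a1 was the most abundant of them in both treatments, and none was at 0. Their sum was lowest in the Het and KO embryo 3 control libraries and in the Het doxorubicin library. The same 3 libraries stood apart in 10 interferon response genes, with sums of 19.9, 2007, 34.7, 22.9 and 2230 CPM in control and 256, 1384, 305 and 322 CPM with doxorubicin, Bst2 being the most abundant. The Het control library also held more channel genes at 10 or more counts (78) than the other controls (52 to 58). It likewise held the most of all genes at 10 or more counts (14598, against 12976 to 14186 in the other controls). Summed markers of macrophages (480.3 CPM), glia (61.1 CPM) and heart muscle (105 CPM) were also highest in this library among the controls. In bulk cultures, fewer cells that express a gene and less RNA of it per cell cannot be told apart.

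Most silent channel genes had a higher mean CPM with doxorubicin (97.1%), as did most of all silent genes with a count in some library (89.6%). Silent genes were chosen by their low control counts, so this direction is largely set by the choice and is no result about channel genes. Few silent channel genes gained counts strongly in every genotype. Silent meant 3 or fewer counts in each of the 5 control libraries, which held for 35 of the 132 channel genes (26.5%) and for 7768 of all 24062 genes (32.3%). Gaining counts meant 10 or more in each of the 4 doxorubicin libraries. By this rule 3 silent channel genes gained counts (8.57%), Hcn4, Kcng3 and Kcnh3, where 330 of all silent genes did (4.25%). Of those 7768 genes 3104 had no count in any of the 9 libraries, as did 0 channel genes, and without them the all-gene share was 7.08% of 4664, near that of the channel genes. The mirror rule, 3 or fewer counts in every doxorubicin library and 10 or more in every control, found 0 channel genes among 12 that were silent with doxorubicin, and 0% of 6430 genes overall.

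The number of silent channel genes that reached 10 counts differed between the libraries. The WT doxorubicin library had 3 of the 35 (8.57%), and KO embryos 1 and 2 had 4 each (11.4%). The Het doxorubicin library had 10 (28.6%). Among all silent genes, Het again had the largest share (9.71%), where WT had 6.15% and the KO cultures 5.50% and 6.11%. Over the 4664 with a count in some library these shares were 16.2% (Het), 10.2% (WT), 9.16% and 10.2% (KO), near those of the channel genes except in Het. Beyond the 3 shared genes, KO embryo 1 added Kcnj9 and KO embryo 2 added Kcnj3. Het added more, among them Cacna1f, Kcnd3os, Kcnj11, Kcnk9, Kcnmb3 and Kcnu1 (named after their values were seen). The Het doxorubicin library was the smallest of the 9 and was 1 of the libraries with high interferon genes, and the part of either in its higher count was not tested.

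At lower levels the gain was wider. Of the 35 silent channel genes, 10 had more than 3 counts in all 4 doxorubicin libraries and 13 in some of them. The other 12 remained silent in all 9 libraries, among them Kcne1, Kcne2 and Kcna10 (named after their values were seen), and 34 of the 35 had a higher mean CPM with doxorubicin. Of all 7768 silent genes, 664 had more than 3 counts in all 4 doxorubicin libraries, 1053 in some and 6051 in none, and 4178 had a higher mean CPM. Over the 4664 with a count in some library, 14.2% had more than 3 counts in all 4 (channel genes 28.6%), and 89.6% had a higher mean CPM (channel genes 97.1%). Low control counts defined both sets, which largely sets the direction of the means. The count of 3 rested on the Het control library, in which several channel genes had more than 3 counts. Without it, 45 channel genes were silent and 10 of them gained counts (22.2%), against 473 of 8281 genes (5.71%, or 9.14% of the 5177 with a count in some library). The 7 genes added were Cacng4, Cacng5, Kcnc1, Kcnj12, Kcnk4, Kcnq3 and Scn4a. Cacng4, for example, had 0, 56, 1, 1 and 2 counts in control and 43, 53, 59 and 51 with doxorubicin, so that the Het library was at its doxorubicin level without the drug. Without the Het and KO embryo 3 controls, 13 silent channel genes gained counts, and 696 of all genes. These 2 counts are given without shares of silent genes, so the channel genes cannot be compared with all genes here. With silence set at 1 or fewer counts in every control, 0 channel genes and 172 of all genes gained counts, since Hcn4, Kcng3 and Kcnh3 each had 3 counts in 1 control library.

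**Figure D1:**
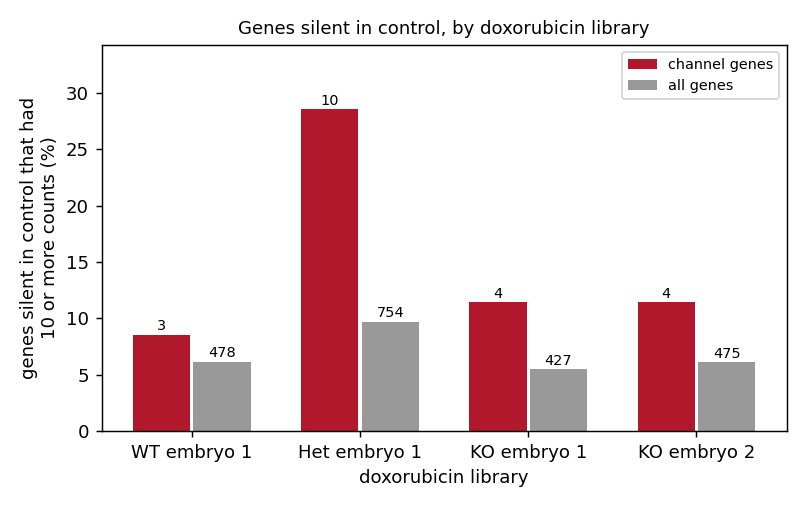
The bars give the percent of genes with 3 or fewer counts in every control library that reached 10 or more counts in each doxorubicin library, for channel genes (35 silent) and for all genes (7768 silent, 3104 of them without a count in any library). The Het library had the largest share of channel genes, 10 of 35.

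Changes of channel genes beyond the silent set were counted with a test of doxorubicin against control in edgeR over all 16656 genes with enough counts, with genotype as a covariate and a false discovery rate (FDR) under 0.01. Of the 132 channel genes 108 were tested and 24 had too few counts. Among those tested, 50 were higher with doxorubicin (46.3%), against 21.9% of all genes (3645). Lower levels were found for 7 channel genes (6.48%), against 18.7% of all genes (3115), and 51 were not called. The median log2 fold change was 1.66 over the channel genes and 0.02 over all genes, and both medians stayed the same with genes lacking control counts set to their bound. Silent genes had to gain counts to be tested at all, so genes abundant in control were also taken alone. Among 45 channel genes with 10 or more counts in every control library, 12 were higher (26.7%) and 7 lower (15.6%), against 14.6% and 24.5% of all such genes, with medians of 0.41 and -0.22. Without 1 library, the all-gene count of lower genes fell to 1933 (WT control), 1959 (WT doxorubicin), 2048 (KO embryo 1 doxorubicin) and 1971 (KO embryo 2 doxorubicin), and that of higher genes to 2351 without the last of these.

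The direction was also read embryo by embryo, in the 4 embryos with both treatments, with the repeated doxorubicin column taken as KO embryo 2. Higher log2 CPM with doxorubicin in 4 of 4 embryos was seen for 71 channel genes (65.7%), against 39.1% of all genes, and lower in 4 of 4 for 13 of the 108, against 34.8%. Among the 45 abundant in control, 22 were higher in 4 of 4 (48.9%, against 29.8% of all such genes) and 12 lower (26.7%, against 44.5%). The median log2 difference of the channel genes was smallest in Het (1.19), and it was 1.81 for the WT embryo and 1.70 and 1.50 for the KO pair. Over all genes these medians were -0.03 (Het), 0.12 (WT), 0.13 and 0.10 (KO). Every doxorubicin library lay above every control library for 54 channel genes (50%, against 24.8% of all genes) and below for 8 (7.41%, against 21.6%). Among the 45 these counts were 16 above (35.6%, against 16.3%) and 8 below (17.8%, against 28.1%). Summed over the 132 channel genes, the level was 643, 633, 589, 670.3 and 583 CPM in control and 1123, 1171, 1167 and 1169 CPM with doxorubicin. No doxorubicin library came near the highest control. The number of channel genes with more than 3 counts was 65, 95, 73, 70 and 77 in control and 109, 116, 106 and 111 with doxorubicin. As shares these ran from 49.2% (WT) to 71.97% (Het) in control and from 80.3% (KO embryo 1) to 87.9% (Het) with doxorubicin. The share of all genes also rose, from 58.9% (KO embryo 2) to 65.9% (Het) in control to 67.5% (KO embryo 1) to 71.4% (Het) with doxorubicin. In both sets the Het and KO embryo 3 libraries were the highest controls.

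**Figure D2:**
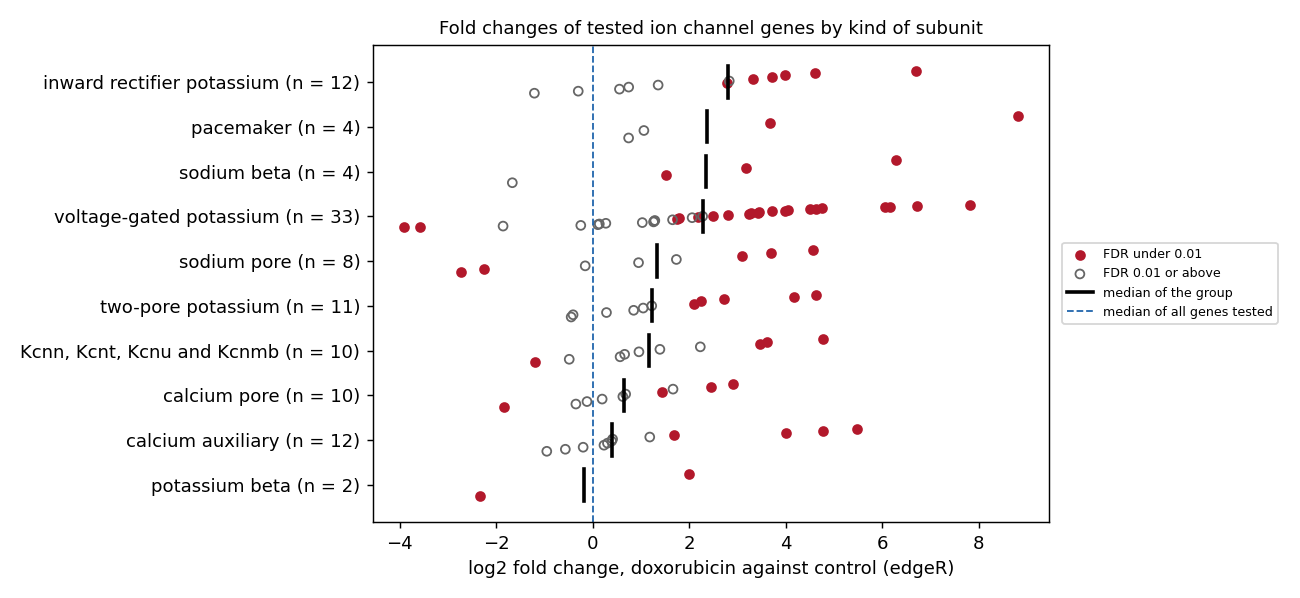
Each point is a tested channel gene, placed by its log2 fold change with doxorubicin (x axis, edgeR) and by the kind of subunit (y axis, n tested), filled where the FDR was under 0.01. Vertical bars mark group medians, 2.81 for inward rectifiers and 2.28 for voltage-gated potassium channels, and the dashed line marks the median of all genes, 0.02. Both group medians include genes silent in control, which could be tested only through their doxorubicin counts.

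The pacemaker (Hcn) genes encode the cation channels that open on hyperpolarisation and drive rhythm in the sinoatrial node and in neurons. All 4 were tested and 2 were higher with doxorubicin. Hcn4, the main isoform of the sinoatrial node, at chr9:58823412-58863175 (GRCm38, + strand), had 2, 3, 1, 0 and 0 counts in the control libraries and 637, 334, 673 and 711 with doxorubicin. It was near 0 in every control and abundant in every doxorubicin library, lowest in Het, with no overlap. The ratio of its pooled CPM, the summed counts of a treatment over its summed scaled library totals, was 507 (95% counting interval 233 to 1384), with an edgeR FDR of 1.08e-05 and higher values in 4 of 4 embryos. Hcn2, a widespread neuronal isoform, had 80, 47, 69, 77 and 50 counts in the control libraries and 883, 468, 867 and 1013 with doxorubicin. It was present before treatment and higher in each doxorubicin library (log2 fold change 3.68, SE 0.218, edgeR FDR 9.44e-06, 4 of 4 embryos).

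Hcn3 did not pass, with 8, 30, 10, 6 and 20 counts in the control libraries and 21, 38, 26 and 26 with doxorubicin. Its groups overlapped, with Het high in both (log2 fold change 1.06, SE 0.374, edgeR FDR 0.0383, higher in 4 of 4 embryos), and it passed without the KO embryo 3 control library (FDR 0.00723, range over the alternatives 0.00260 to 0.158). Exons of Hcn3 overlap those of Pklr. Per kilobase of exon, the doxorubicin level was 12.6 ± 3.73 CPM (SD, n = 4) for Hcn2 and 4.82 ± 1.51 for Hcn4, against 0.345 ± 0.0870 for Hcn3. Hcn4 thus went from below Hcn2 and Hcn3 in control to a place between them.

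Heart markers were read beside Hcn4. Of 12 heart muscle genes 10 were tested and 0 passed in edgeR, with 2 at an unadjusted p under 0.05 and 0 called by DESeq2. Their summed level was 13.7, 105, 43.6, 13.2 and 43.3 CPM in control and 34.1, 123, 56.6 and 24.4 CPM with doxorubicin, with Nppb the most abundant. The groups overlapped, but within embryos the sum was higher with doxorubicin in 4 of 4. Nppb, a natriuretic peptide, had 126, 390, 461, 73 and 191 counts in the control libraries and 419, 963, 684 and 302 with doxorubicin. It was also higher in 4 of 4 embryos (log2 fold change 1.34, SE 0.498, edgeR FDR 0.0461). The list went both ways within embryos, with no gene called in either direction. Actc1, the cardiac actin, had 47, 858, 77, 47 and 296 counts in the control libraries and 37, 365, 32 and 25 with doxorubicin. It was lower in 4 of 4 embryos (log2 fold change -1.47, SE 0.562, edgeR FDR 0.0517), and Tnnt2, Tnni3 and Myl7 were lower in 3 of 4. Nppa and Mybpc3 were higher in 4 of 4 embryos, and Myh6, Myh7 and Ryr2 were higher in 3 of 4. The part of cells of any such type in the level of Hcn4 was not tested.

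Voltage-gated potassium channel subunits, which repolarise the membrane, were the largest group with 40 genes. Of 33 tested, 19 were higher (57.6%, against 21.9% of all genes) and 2 lower (6.06%, against 18.7%), with a median log2 fold change of 2.28, and 11 were silent in control, of which 2 gained counts. Their summed level was 37.9, 53.4, 43.7, 41.6 and 37.4 CPM in control and 185, 228, 192 and 190.4 CPM with doxorubicin, so that all doxorubicin libraries were well above all controls. In this and the other kinds of subunit, silent genes could be tested only through their doxorubicin counts, which raises the shares and medians. Genes abundant in control were not taken alone for any kind of subunit. Kcnc4, a Shaw subunit of currents that activate at high voltage, at chr3:107438303-107459552 (- strand), had 2, 13, 0, 2 and 4 counts in the control libraries and 947, 674, 854 and 951 with doxorubicin. It went from near 0 to 674 counts or more in every genotype, and the Het control was the highest of the controls. The ratio of pooled CPM was 211 (95% counting interval 138 to 341), with log2 fold change 7.81, SE 0.570, edgeR FDR 2.08e-05, in 4 of 4 embryos.

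Kcnh3 encodes an Elk-type channel of the forebrain, at chr15:99224861-99242817 (+ strand), and had 3, 0, 0, 0 and 0 counts in the control libraries and 61, 77, 74 and 61 with doxorubicin. Control counts were confined to the WT library, and the 4 doxorubicin libraries were alike. The ratio was 118 (95% counting interval 39.8 to 574), with an edgeR FDR of 0.000175 and 4 of 4 embryos higher. Its exons overlap those of Mcrs1 on the opposite strand, and since the strand setting of the counting was not stated, part of its reads may belong there. Kcng3 encodes a modifier subunit that gives no current alone and assembles with Kcnb subunits, and lies at chr17:83585957-83631895 (- strand). It had 1, 1, 0, 0 and 3 counts in the control libraries and 71, 91, 72 and 72 with doxorubicin, with a similar number in all doxorubicin libraries and at most 3 in any control. The ratio was 79.1 (95% counting interval 33.5 to 245), with an edgeR FDR of 8.38e-05 and 4 of 4 embryos higher.

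The lower voltage-gated potassium channel genes were Kcnd1 and Kcna5. Kcnd1, a Shal subunit of the rapidly inactivating A-type current, had 103, 137, 109, 96 and 92 counts in the control libraries and 7, 16, 7 and 7 with doxorubicin. All doxorubicin libraries were far below all controls, Het the highest of them (log2 fold change -3.57, SE 0.324, edgeR FDR 5.52e-05, lower in 4 of 4 embryos). Kcna5, a Shaker subunit of the atrial ultrarapid current, had 30, 39, 14, 16 and 34 counts in the control libraries and 1, 4, 1 and 1 with doxorubicin. It was close to 0 in each treated culture (log2 fold change -3.92, SE 0.515, edgeR FDR 0.00031, lower in 4 of 4 embryos). In KO libraries alone Kcna5 missed the threshold (log2 fold change -4.21, edgeR FDR 0.0110).

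Inward rectifier channels (Kcnj) pass potassium near the resting potential and hold it negative. Of 15, 12 were tested, 6 were higher (50%), with a median log2 fold change of 2.81, and 5 were silent in control, of which 0 gained counts. The summed level was 51.9, 23.7, 45.8, 54.7 and 17.5 CPM in control and 134, 87.3, 144 and 156 CPM with doxorubicin. In control it was lowest in the Het and KO embryo 3 libraries, the ones with high interferon genes, and each treated culture was above all of them. Kcnj4, a strong inward rectifier of heart and brain, had 71, 76, 63, 67 and 74 counts in the control libraries and 1083, 707, 1129 and 1436 with doxorubicin. Its control counts were alike in all 5 libraries and the groups were far apart, with Het the lowest treated culture (log2 fold change 3.99, SE 0.181, edgeR FDR 3.20e-06, 4 of 4 embryos). Kcnj12, a strong rectifier of heart and muscle, had 1, 8, 0, 0 and 3 counts in the control libraries and 213, 165, 230 and 284 with doxorubicin, with the Het and KO embryo 3 libraries the highest controls. The ratio of pooled CPM was 96.1 (95% counting interval 54.7 to 187), with log2 fold change 6.69, SE 0.703, edgeR FDR 0.000101, in 4 of 4 embryos.

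The background potassium channels with tandem pore domains (Kcnk) leak potassium at rest. Of 14, 11 were tested, 5 were higher (45.5%), with a median log2 fold change of 1.22. The group had 4 silent genes, and 0 of them gained counts. The Kcnn, Kcnt and Kcnu channels and the Kcnmb subunits, most of them of channels opened by calcium or sodium, numbered 11, of which 10 were tested, with 3 higher (30%), 1 lower (10%) and a median of 1.17. Kcnn2, a small-conductance channel opened by calcium through calmodulin, had 3, 10, 9, 1 and 4 counts in the control libraries and 156, 117, 140 and 145 with doxorubicin. It was low in every control and above 100 counts in every treated culture (log2 fold change 4.76, SE 0.499, edgeR FDR 0.000101, 4 of 4 embryos). Its exons overlap A330093E20Rik and a further gene on the opposite strand, so the origin of the reads is uncertain. Kcnt2, a channel opened by sodium, had 53, 63, 28, 31 and 54 counts in the control libraries and 24, 21, 14 and 19 with doxorubicin. All treated cultures were below the controls (log2 fold change -1.20, SE 0.298, edgeR FDR 0.00823, lower in 4 of 4 embryos), and its exons overlap 4930590L20Rik. This call was lost without the WT control (0.0339), the Het control (0.0290), the KO embryo 2 control (0.0161), the WT doxorubicin (0.0323), the Het doxorubicin (0.0274), the KO embryo 1 doxorubicin (0.0361) or the KO embryo 2 doxorubicin library (0.0301), and its range over all alternatives was 0.00145 to 0.107.

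The Kcne genes encode single-pass subunits that tune Kcnq and other pores. Of 5, 2 were tested, 1 was higher and 1 lower, and 3 were silent in control. With 2 genes tested no direction is given for the group, whose median of -0.17 changed sign with upper-quartile scaling (0.01). Kcne4, which damps Kcnq1 currents, had 52, 49, 66, 55 and 107 counts in the control libraries and 14, 10, 13 and 10 with doxorubicin. The treated cultures were all below the controls, of which KO embryo 3 was the highest (log2 fold change -2.34, SE 0.341, edgeR FDR 0.000541, lower in 4 of 4 embryos). In KO libraries alone Kcne4 missed the threshold (log2 fold change -2.65, edgeR FDR 0.0122).

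Calcium channel pores (Cacna) were all tested, and of 10 genes 3 were higher (30%) and 1 lower (10%), with a median log2 fold change of 0.65. Shares from so few genes were not far from those of all genes (21.9% and 18.7%). Their summed level was 159.8, 167, 152, 174 and 173 CPM in control and 159, 212, 178 and 155 CPM with doxorubicin, which overlapped. Cacna1c, the L-type pore of heart and smooth muscle, had 1420, 1180, 1316, 1242 and 1116 counts in the control libraries and 362, 385, 333 and 297 with doxorubicin. All treated libraries were far below all controls, among which Het and KO embryo 3 were the lowest (log2 fold change -1.83, SE 0.191, edgeR FDR 9.84e-05, lower in 4 of 4 embryos). Cacna1g, a T-type pore that opens at low voltage, had 1198, 1973, 1084, 1223 and 1936 counts in the control libraries and 1568, 1511, 1616 and 1707 with doxorubicin. Its mean control level was the highest of the pores per kilobase of exon (8.27 ± 1.57 CPM per kilobase, SD, n = 5, against 4.03 ± 0.730 for Cacna1c). The Het and KO embryo 3 controls were above the treated cultures in counts and the other controls below (log2 fold change 0.20, SE 0.170, edgeR FDR 0.356, higher in 3 of 4 embryos). Without those 2 controls it passed (log2 fold change 0.38, FDR 0.00580, range over all alternatives 0.00580 to 0.616).

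The auxiliary calcium channel subunits (Cacna2d, Cacnb and Cacng) bring pores to the membrane or, for several gamma subunits, accompany AMPA receptors. Of 16, 12 were tested, 4 were higher (33.3%), with a median of 0.40, and 3 were silent in control, of which 0 gained counts. Their summed level was 233, 216, 205, 246 and 217 CPM in control and 230.1, 209, 219 and 211 CPM with doxorubicin, again overlapping. Cacna2d2, an extracellular subunit that binds gabapentin, had 1, 6, 4, 0 and 0 counts in the control libraries and 67, 179, 69 and 69 with doxorubicin. Each treated culture was above each control, Het by far the highest. The ratio of pooled CPM was 45.1 (95% counting interval 24.9 to 91.2), with log2 fold change 5.47, SE 0.650, edgeR FDR 0.000187, in 4 of 4 embryos, and its exons overlap Gm17141 on the opposite strand. In KO libraries alone Cacna2d2 missed the threshold (log2 fold change 5.59, edgeR FDR 0.0140). Cacng5 had 0, 7, 3, 0 and 0 counts in the control libraries and 48, 20, 60 and 70 with doxorubicin. The ratio was 25.6 (95% counting interval 13.6 to 54.2), with an edgeR FDR of 0.00265 and 4 of 4 embryos higher. It missed the threshold without the WT (0.0102), KO embryo 1 (0.0113) or KO embryo 2 doxorubicin library (0.0119), the range over all alternatives being 8.13e-07 to 0.0119.

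The auxiliary subunits most abundant in control were not called. Cacna2d1, the gabapentin receptor of most tissues, had 2532, 1216, 2130, 2373 and 1224 counts in the control libraries and 2143, 851, 1663 and 1881 with doxorubicin. The groups overlapped, and the Het and KO embryo 3 controls were low (log2 fold change -0.20, SE 0.240, edgeR FDR 0.509, higher in 0 of 4 embryos), with the sign turned under upper-quartile scaling (0.0041). Without those 2 controls it passed as lower (log2 fold change -0.41, FDR 0.00381, range over all alternatives 0.00381 to 0.989). Cacnb3, a cytoplasmic beta subunit, had 1404, 2522, 1188, 1307 and 2499 counts in the control libraries and 1073, 1188, 1053 and 1211 with doxorubicin. Here the Het and KO embryo 3 controls were high, and the treated libraries lay below all controls in CPM (log2 fold change -0.57, SE 0.197, edgeR FDR 0.0359, lower in 4 of 4 embryos). Cacng7 had 519, 680, 418, 474 and 547 counts in the control libraries and 641, 581, 525 and 658 with doxorubicin, close together in both treatments (log2 fold change 0.23, SE 0.140, edgeR FDR 0.186, higher in 4 of 4 embryos).

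Sodium channel pores (Scn1a and its relatives) start the action potential. Of 10, 8 were tested, 3 were higher (37.5%) and 2 lower (25%), with a median log2 fold change of 1.34, and 2 were silent in control, of which 0 gained counts. Summed levels were low, 9.61, 20.5, 9.60, 8.87 and 10.2 CPM in control and 13.0, 20.4, 12.9 and 11.3 CPM with doxorubicin. The Het libraries were the highest in each treatment. Scn2a1, a neuronal pore, had 65, 96, 64, 48 and 82 counts in the control libraries and 9, 15, 9 and 9 with doxorubicin, with every treated culture far below every control (log2 fold change -2.72, SE 0.294, edgeR FDR 0.000118, lower in 4 of 4 embryos). Scn7a, a sodium sensor of glia that does not open with voltage, had 97, 303, 97, 86 and 109 counts in the control libraries and 35, 24, 19 and 26 with doxorubicin. The Het control was the highest, and all treated cultures were low (log2 fold change -2.26, SE 0.334, edgeR FDR 0.000585, lower in 4 of 4 embryos).

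Sodium channel beta subunits, single-pass proteins that also act in cell adhesion, numbered 4, all tested, of which 3 were higher. The median was 2.34, and their summed level was 70.2, 59.9, 41.7, 64.6 and 54.7 CPM in control and 209.9, 234, 199 and 255 CPM with doxorubicin, without overlap. Scn4b, which shapes the resurgent current, had 7, 15, 5, 7 and 10 counts in the control libraries and 556, 873, 527 and 707 with doxorubicin. It was low but present in each control and at 527 counts or more in each treated culture, Het the highest (log2 fold change 6.28, SE 0.216, edgeR FDR 1.50e-06, 4 of 4 embryos).

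Levels were compared between genes per kilobase of exon. Among the genes with the highest control levels, Cacnb3 had 28.4 ± 7.56 CPM per kilobase (SD, n = 5). It was followed, among the genes given here, by Cacng7 with 11.4 ± 1.10, Cacna2d1 with 11.3 ± 4.72 and Cacna1g with 8.27 ± 1.57 CPM per kilobase. The spread of Cacna2d1 reached both of the others, and those of Cacng7 and Cacna1g did not meet. With doxorubicin Kcnj4 had 25.2 ± 6.63 CPM per kilobase (SD, n = 4) and overlapped Cacnb3 with 19.0 ± 0.777. Cacng7 had 13.5 ± 0.719 and Hcn2 12.6 ± 3.73 CPM per kilobase, within their spread. Kcnj4 and Hcn2 thus joined the 5 highest levels after treatment.

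**Figure D3:**
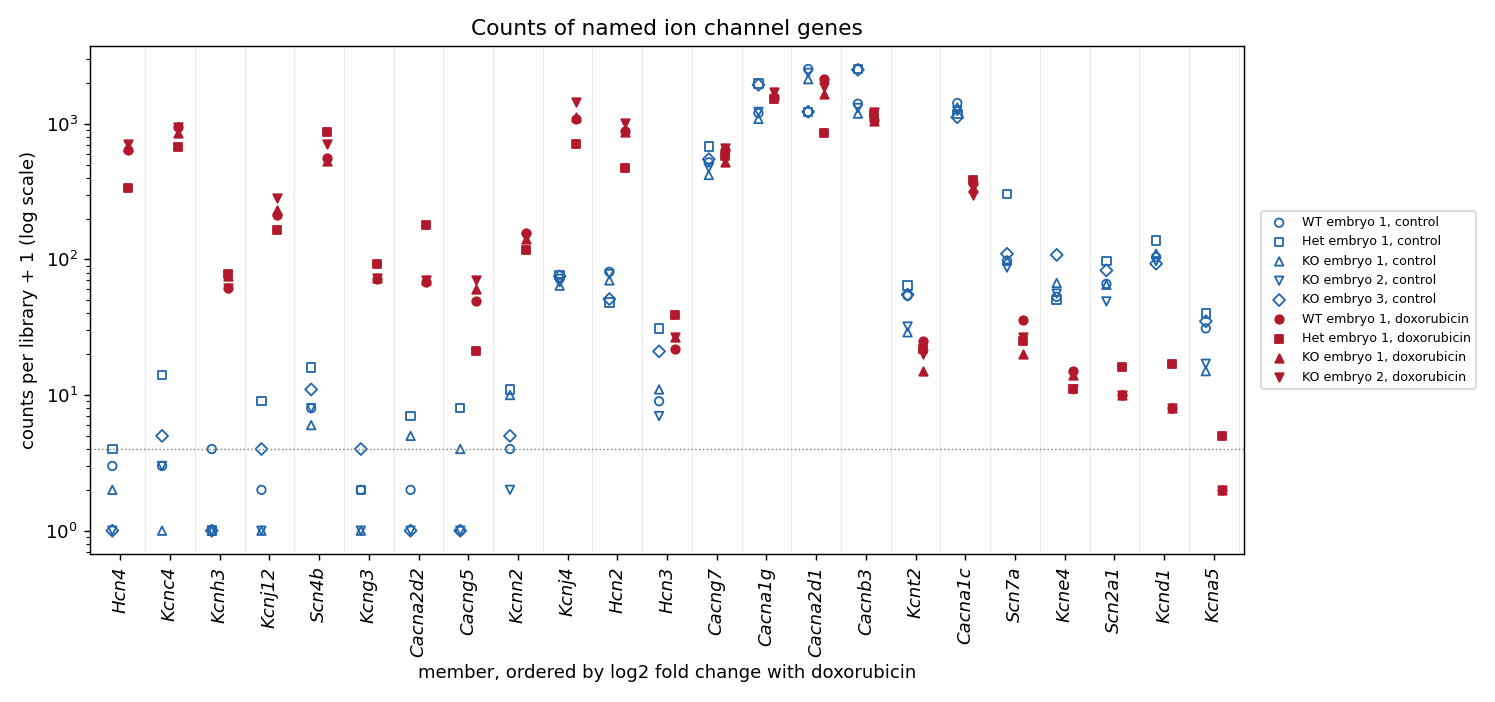
Counts plus 1 (log scale) of named channel genes in the 9 libraries, ordered by log2 fold change, with open symbols for control and filled symbols for doxorubicin; the dotted line marks 3 counts. Hcn4 had 0 to 3 counts in control and 334 to 711 with doxorubicin, while Kcna5 had 14 to 39 and 1 to 4.

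The channel genes most like Hcn4 were taken by the Pearson correlation of log2 CPM over the 9 libraries, which differ in treatment and depth. They were Kcnj4 (0.992), Scn4b (0.985), Kcnc4 (0.985), Kcnj12 (0.984) and Kcnh3 (0.983). All 5 were at or near their lowest in the controls and higher in each treated culture, as given above for each. The coefficients describe a split between treatments and carry no p.

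Genotype was tested in 2 ways. An interaction of genotype and treatment in edgeR asked whether the response to doxorubicin differed between WT, Het and KO. It passed for 0 channel genes, against 0% of all genes (0 of 16656), with 3 channel genes and 160 genes at an unadjusted p under 0.05. The smallest FDR was 1 in edgeR, and DESeq2 called 0. This fit took its spread from KO embryos alone, since WT and Het had 1 library per treatment. The KO against WT coefficient over both treatments passed for 0 channel genes, against 0% of all genes, with 1 channel gene and 115 genes at an unadjusted p under 0.05. The smallest FDR was 1 among channel genes and 0.0569 among all genes, and DESeq2 called 0 channel genes and 3 genes in all.

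With the embryo as a block in the interaction test, an alternative chosen after the data were seen whose spread rests on KO embryos 1 and 2 alone, 16 of the 108 channel genes passed (14.8%), against 12.2% of all genes (2037). In 14 of the 16 all 4 embryos moved the same way (87.5%, against 55.5% of the 2037), and in 12 the difference of smallest size was in Het (75%, against 61.2%). Kcnn3, a small-conductance channel opened by calcium, had 23, 361, 15, 12 and 198 counts in control and 146, 455, 149 and 186 with doxorubicin. The Het control was close to its treated pair, and the KO embryo 3 control, which had no treated pair, was also high (log2 difference 0.57, against 2.57 for WT and 3.27 and 3.49 for KO; blocked edgeR FDR 1.72e-12, without the block 1). Kcnc4 and Kcnj12 were among the 16 as well, and their Het control libraries held the most counts of any control. Scn7a was a lower gene, with a log2 difference of -3.31 in Het, against -1.42 for WT and -2.14 and -1.93 for KO. Kcnn3 was named after its values were seen. The part of the high interferon genes and macrophage markers of the Het embryo in these differences was not tested.

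Position was described without a test. The annotation (GENCODE, GRCm38) gave 30 neighbouring pairs of channel genes within 300 kb. In 3 pairs both genes were called higher (Kcnh6 with Scn4a, Cacng4 with Cacng5, Kcna1 with Kcna6), and in 15 pairs 1 gene of the pair was called. No share over neighbouring pairs of all genes is given, so these counts show nothing particular to channel genes. Cacng4 missed the threshold with the embryo block (FDR 0.0186, range over all alternatives 2.22e-06 to 0.0244) and Kcnh6 had a range of 0.00196 to 0.0397, so the pairs with these genes rest on calls near the threshold. In 1 pair both genes were called, in opposite directions, Kcna5 (log2 fold change -3.92) and Kcna1 (2.19), which are 105.0 kb apart on chromosome 6. Scn2b and Scn4b lie 8.32 kb apart on chromosome 9, and Scn4b passed (6.28) where Scn2b did not (-1.67, edgeR FDR 0.148, higher in 1 of 4 embryos). Chromosome 2 held 17 channel genes, chromosome 7 held 15 and chromosome 11 held 12. The median span of the channel genes was 40.1 kb, against 22.3 kb for all genes tested. It was also 40.1 kb for the 50 higher genes, where all higher genes had 17.3 kb, and 111 kb for the 7 lower ones, where all lower genes had 30.8 kb. Exons of 32 channel genes overlap another gene, among them 11 of the 50 higher, 1 of the 7 lower and 1 of the 3 that gained counts, and for these the origin of the reads is uncertain. The pairs were named after their values were seen.

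Promoter sequences are shown for Hcn4 and Kcng3, which gained counts from silence, and for Kcnc4 and Kcnj12, which went from near 0 in most controls to 165 counts or more. RefSeq promoters (250 bases before to 50 after the start, GRCm38.p6) were matched for 95 of the 132 channel genes by symbol, too few for a comparison of promoters over the set, which is void. The windows are chr9:58822699-58822998 (+) for Hcn4, chr17:83631846-83632145 (-) for Kcng3, chr3:107458849-107459148 (-) for Kcnc4 and chr11:61065554-61065853 (+) for Kcnj12. That of Hcn4 lies before the annotated gene, that of Kcng3 spans its first base, and those of Kcnc4 and Kcnj12 lie inside the annotated genes. Capitals mark GGGCGG or its complement, the letters of a GC box. Also searched on both strands were the TATA box letters TATAAA, the letters GGACAGC and, apart from them, TTCAGCACC of the element bound by REST, and TGACTCA of AP-1 sites, none of which occurs in these 4 windows. Over all 32851 promoters 35.7% hold GGGCGG, 13.6% TATAAA, 6.56% GGACAGC, 0.371% TTCAGCACC and 5.20% TGACTCA. GC content was 71.7% for Hcn4, 82.0% for Kcng3, 66.7% for Kcnc4 and 57.0% for Kcnj12, with 31, 49, 17 and 4 CpG, against medians of 52.7% and 7 over all promoters. Each sequence reads along the strand of its gene.
Hcn4: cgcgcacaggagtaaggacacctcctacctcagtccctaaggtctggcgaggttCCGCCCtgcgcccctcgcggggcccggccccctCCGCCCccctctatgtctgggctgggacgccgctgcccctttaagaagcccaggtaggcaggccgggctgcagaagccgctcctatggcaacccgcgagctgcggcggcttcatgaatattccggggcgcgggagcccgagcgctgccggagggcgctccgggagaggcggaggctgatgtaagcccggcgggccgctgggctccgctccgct
Kcng3: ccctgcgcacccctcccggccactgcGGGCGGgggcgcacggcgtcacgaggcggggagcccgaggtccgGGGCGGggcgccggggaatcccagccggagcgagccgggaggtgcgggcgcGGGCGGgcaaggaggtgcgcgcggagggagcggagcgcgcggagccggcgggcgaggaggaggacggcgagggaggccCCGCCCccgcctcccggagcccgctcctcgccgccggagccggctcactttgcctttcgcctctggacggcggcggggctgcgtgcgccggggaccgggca
Kcnc4: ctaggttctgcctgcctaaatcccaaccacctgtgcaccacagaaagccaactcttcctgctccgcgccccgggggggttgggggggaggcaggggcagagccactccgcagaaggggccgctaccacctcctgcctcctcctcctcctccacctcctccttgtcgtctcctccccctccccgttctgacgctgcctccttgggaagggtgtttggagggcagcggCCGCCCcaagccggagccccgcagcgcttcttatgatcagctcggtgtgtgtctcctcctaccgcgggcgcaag
Kcnj12: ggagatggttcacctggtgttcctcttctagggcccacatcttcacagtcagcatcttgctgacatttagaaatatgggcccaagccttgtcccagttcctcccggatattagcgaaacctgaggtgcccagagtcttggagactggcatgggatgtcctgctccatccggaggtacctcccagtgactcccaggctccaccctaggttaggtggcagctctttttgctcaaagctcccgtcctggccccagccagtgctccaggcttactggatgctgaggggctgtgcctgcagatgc

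Other channels and channel partners were counted in the same way. Of 39 partners of these channels, such as accessory and cyclic nucleotide-gated subunits, 31 were tested, 9 were higher (29.0%, against 21.9% of all genes) and 4 lower (12.9%, against 18.7%), with a median log2 fold change of 0.70. The list held 11 silent genes, of which 3 gained counts (27.3%). Silent channel genes had 8.57% and all silent genes 4.25%, or 7.08% of those with a count. Cnga4, a subunit of the olfactory cyclic nucleotide-gated channel, had 0, 1, 0, 0 and 0 counts in the control libraries and 43, 137, 39 and 31 with doxorubicin, a ratio of pooled CPM of 323, with a 95% counting interval of 57.5 to 12816 (edgeR FDR 2.09e-05, 4 of 4 embryos). It was all but absent from the controls and highest in Het. Lrrc38, an auxiliary subunit of large-conductance potassium channels, had 2, 2, 1, 2 and 0 counts in the control libraries and 164, 122, 151 and 215 with doxorubicin, a ratio of pooled CPM of 120.4, with a 95% counting interval of 58.1 to 301 (edgeR FDR 2.06e-05, 4 of 4 embryos). Cnga3 of cone photoreceptors had 0, 3, 0, 1 and 3 counts in the control libraries and 74, 22, 120 and 127 with doxorubicin, a ratio of pooled CPM of 63.3, with a 95% counting interval of 30.4 to 159 (edgeR FDR 0.000298, 4 of 4 embryos). Every treated culture was above every control for each of these, and so it was for Unc80, of the sodium leak channel complex, with 0, 8, 0, 0 and 2 counts in the control libraries and 31, 57, 27 and 26 with doxorubicin (log2 fold change 4.51, SE 0.729, edgeR FDR 0.000934, 4 of 4 embryos). The most abundant partners were Tpcn1 in control and Fgf13 with doxorubicin.

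Of 70 ligand-gated channel genes 52 were tested, 19 were higher (36.5%, against 21.9% of all genes), with a median of 1.03. Of 24 silent genes 5 gained counts (20.8%). Silent channel genes had 8.57% and all silent genes with a count 7.08%. Grin2c, an NMDA receptor subunit, had 0, 0, 3, 1 and 0 counts in the control libraries and 98, 146, 67 and 68 with doxorubicin, a ratio of pooled CPM of 122, with a 95% counting interval of 47.4 to 452 (edgeR FDR 0.000178, 4 of 4 embryos). Gabra5, a GABA receptor subunit of the hippocampus, had 0, 1, 1, 1 and 1 counts in the control libraries and 76, 93, 57 and 88 with doxorubicin, a ratio of pooled CPM of 101, with a 95% counting interval of 39.2 to 375 (edgeR FDR 2.01e-05, 4 of 4 embryos). Chrna3, a nicotinic receptor subunit of autonomic ganglia, had 0, 2, 0, 1 and 0 counts in the control libraries and 54, 75, 47 and 55 with doxorubicin, a ratio of pooled CPM of 99.5, with a 95% counting interval of 33.6 to 486 (edgeR FDR 7.29e-05, 4 of 4 embryos). All 3 were at or under 3 counts in each control and above 40 in each treated culture. Asic4, of the acid-sensing family, had 0, 1, 0, 0 and 0 counts in the control libraries and 14, 32, 32 and 18 with doxorubicin, a ratio of pooled CPM of 124, with a 95% counting interval of 21.7 to 4952 (edgeR FDR 0.000134, 4 of 4 embryos). Gria3 was the most abundant of the list in both treatments.

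Among 30 TRP and mechanosensitive channel genes 22 were tested, 6 were higher (27.3%) and 2 lower (9.09%), with a median of 0.21, and 0 of 8 silent genes gained counts. Trpm1 had 0, 1, 0, 0 and 1 counts in the control libraries and 6, 16, 14 and 7 with doxorubicin, a ratio of pooled CPM of 27.8, with a 95% counting interval of 7.24 to 237 (edgeR FDR 0.000947, 4 of 4 embryos). Pkd2l1 and the heat and capsaicin receptor Trpv1 were higher as well, with at most 32 counts in any library, and Piezo1 was the most abundant. Among 28 chloride channel genes 27 were tested, 6 were higher (22.2%) and 4 lower (14.8%), near the shares of all genes, with a median of 0.02, and 1 of 4 silent genes gained counts. Best2, a bestrophin chloride channel, had 0, 1, 0, 1 and 1 counts in the control libraries and 18, 36, 17 and 14 with doxorubicin, a ratio of pooled CPM of 36.6, with a 95% counting interval of 12.1 to 181 (edgeR FDR 0.000264, 4 of 4 embryos). Cftr, the channel of airway and gut epithelium, had 8, 5, 2, 3 and 3 counts in the control libraries and 29, 31, 42 and 29 with doxorubicin (log2 fold change 3.04, SE 0.449, edgeR FDR 0.000574, 4 of 4 embryos). Ano9 had no control counts and at most 15 with doxorubicin, Ano2 had at most 2 and at most 19, and Ano6 was the most abundant.

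Other gene families were counted beside the channels. Of 33 aminergic and muscarinic receptor genes 22 were tested, 11 were higher (50%, against 21.9% of all genes), with a median of 2.50. Of 13 silent genes 3 gained counts (23.1%), where silent channel genes had 8.57% and all silent genes with a count 7.08%. Adra2c had 0 counts in every control and 355, 214, 389 and 376 with doxorubicin. Its mean doxorubicin level was 16.7 CPM, where the floor of 3 counts per library was 0.123 to 0.168 CPM. Adra2b, a further adrenergic receptor, had 0, 1, 3, 1 and 0 counts in the control libraries and 278, 201, 226 and 342 with doxorubicin, Htr5a had none in control and 18, 17, 15 and 14 with doxorubicin, and Adra1d was the most abundant in control. Of 1122 olfactory receptor genes, 1103 were silent and 1 gained counts (16 tested, 4 higher and 1 lower). Of 338 vomeronasal receptor genes 332 were silent and 0 gained counts (3 tested, 1 higher and 1 lower), and of 35 bitter taste receptor genes all 35 were silent and 0 gained. Among 43 beta-defensin genes 41 were silent and 0 gained (1 tested, not called), and among 52 keratin-associated protein genes 51 were silent and 1, Krtap3-2, gained (2 tested, both higher). Among 20 p53 targets, a check on the drug response, all were tested, with a median of -0.20 and Ccng1 the most abundant. Of these, 4 were higher (20%, against 21.9% of all genes), among them Perp (log2 fold change 2.34) and Pmaip1 (2.19). Lower was 1 (5%, against 18.7%), Phlda3 (-1.46). Others were not called, such as Cdkn1a (-0.67, edgeR FDR 0.0145, lower in 4 of 4 embryos) and Mdm2 (-0.25, edgeR FDR 0.512, lower in 2 of 4). The list as a whole thus showed no excess of higher genes.

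Markers of cells that normally hold these channels were read in the same libraries. Of 15 neuron markers 14 were tested, 6 were higher (42.9%, against 21.9% of all genes) and 1 lower (7.14%, against 18.7%). Their summed level was 149, 108, 139, 147 and 95.3 CPM in control and 141, 131, 149 and 144 CPM with doxorubicin. The sums overlapped and were higher in 2 of 4 embryos, with Tubb3 the most abundant. Gad1, which makes GABA, had 1, 12, 0, 1 and 0 counts in the control libraries and 131, 135, 88 and 127 with doxorubicin (log2 fold change 5.96, SE 0.734, edgeR FDR 0.000226, 4 of 4 embryos). The lower marker was Map2, with 872, 823, 791, 1001 and 588 counts in control and 354, 317, 309 and 418 with doxorubicin (log2 fold change -1.19, SE 0.222, edgeR FDR 0.00194, lower in 4 of 4 embryos). The part of neurons in the channel counts was not tested. Of 10 skeletal muscle markers 9 were tested, 2 were higher (sums 125 to 227 CPM in control and 137 to 274 with doxorubicin, higher in 2 of 4 embryos, Des the most abundant), and Myf5 was at or under 3 counts everywhere. Of the 6 smooth muscle markers 1 was lower (sums 7799 to 19558 CPM in control and 8097 to 26428 with doxorubicin, higher in 3 of 4 embryos, Acta2 the most abundant). The 7 glia markers had 1 higher and 1 lower (sums 7.27 to 61.1 CPM in control and 29.6 to 37.3 with doxorubicin, higher in 3 of 4 embryos, Erbb3 the most abundant with doxorubicin). Of 6 macrophage markers 5 were in the table, with 1 higher and 1 lower (sums 87.4 to 480.3 CPM in control and 62.1 to 499 with doxorubicin, higher in 1 of 4 embryos, Lyz2 the most abundant). The macrophage sum was highest in the libraries with high interferon genes. These were the Het control (480.3 CPM), the KO embryo 3 control (370 CPM) and the Het doxorubicin library (499 CPM). Of the 5 endothelium markers 1 was higher (sums 17.6 to 46.8 CPM in control and 35.6 to 90.7 with doxorubicin, higher in 4 of 4 embryos, Emcn the most abundant). DESeq2 called 4 of these 5 markers, and 4 had an unadjusted p under 0.05 in edgeR. Of 5 epithelium markers 4 were tested, with 2 higher and 1 lower (sums 6.96 to 18.8 CPM in control and 6.98 to 12.7 with doxorubicin, higher in 2 of 4 embryos, Krt18 the most abundant), and Krt5 gained counts from silence. In the fibroblast list 1 gene was lower, Pdgfrb (log2 fold change -2.83). Its sum was higher in 1 of 4 embryos. The interferon sum was higher with doxorubicin in the WT and both treated KO embryos and lower in Het, and Irf7 and Bst2 were higher in 4 of 4. In the interferon list 0 of 10 passed in edgeR, with 0 at an unadjusted p under 0.05 and 0 called by DESeq2.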

How the data were processed

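The deposited table holds raw counts per gene for 24062 genes, which the authors made by merging 4 lanes per library, aligning with HISAT2 (2.1.0 in the processing notes) and counting reads with HTSeq in union mode; the strand setting was not stated. Of 10 columns, 1 KO doxorubicin column repeated another at every gene and was left out. Numbers on libraries were read as embryos: after removal of the treatment mean, control and treated libraries of the same number were correlated over 16656 genes (r 0.727 for Het, 0.475 for WT, 0.570 and 0.481 for KO, where the best match with another embryo had -0.493, 0.365, 0.278 and 0.405), so that the embryo was tried as a block.

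Tests were run in R 4.3.3 with edgeR 4.0.16 (trimmed-mean scaling, filterByExpr over condition, quasi-likelihood, two-sided, Benjamini-Hochberg over all genes tested, FDR under 0.01). Alternatives were DESeq2 1.42.0, other scalings and filters, the embryo block, leaving out libraries and KO alone. Log2 CPM used a prior count of 2. Counting intervals are exact binomial (95%) on summed counts.

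The genes named were those that gained counts from silence or by the mirror rule, the 10 largest increases and 10 largest decreases past the FDR in 4 of 4 embryos, the Hcn genes, genes called for genotype, the 5 highest per kilobase in each treatment, the 5 most like Hcn4, and per list the most abundant and up to 4 with the largest change. The channel genes, lists and markers were chosen with earlier results of these data known. Gene positions are from GENCODE (GRCm38). The values of some genes that the rule names are not reported here.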

Additional observations from a re-analysis of the deposited data

Results flagged for a closer look

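Cacna1g, the T-type calcium channel pore, was lower with doxorubicin in Het (log2 difference -0.143) and higher for WT (0.386) and for both treated KO embryos (0.691 and 0.191). The sign differed between genotypes. The interaction in edgeR had an FDR of 1.

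Among the 26 named channel genes, each with the 5 control and the 4 doxorubicin libraries, 7 of 52 groups had a library whose distance from the rest took up nearly the whole range, where chance gives about 1 in 20. The Het doxorubicin library was such in 4 of them, high for Cacna2d2 (8.67 CPM), Kcna5 (0.194 CPM) and Kcnd1 (0.775 CPM) and low for Hcn2 (22.7 CPM). The Het control library was high for Scn7a (12.4 CPM), the WT control library for Kcnh3 (0.149 CPM, the only control with counts), and the KO embryo 2 doxorubicin library was low for Cacna1c (13.6 CPM). The groups shared the same 9 libraries, and the Kcnh3 value was at the floor of 3 counts, with that of Kcna5 close to the floor. The 1 in 20 is therefore no valid rate here, and the cause was not tested.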

How the results depend on the processing

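Over 20 alternatives, 489 of 517 values of the 26 named channel genes kept their direction and side of the threshold, 23 lost the call, 4 gained it, and 1 turned, Cacna2d1 with upper-quartile scaling (log2 fold change 0.0041). KO libraries alone gave 20 higher and 4 lower channel genes (1201 and 710 of all genes), with fewer samples, and of the 20 calls of named channel genes 5 were lost (Cacna2d2, Cacng5, Kcna5, Kcne4 and Kcnt2). Without the Het and KO embryo 3 controls 11 channel genes were lower, and 84.3% of the channel genes called were higher (52.4% of all genes called). Of all genes 5512 were higher and 5006 lower. From silence 13 channel genes and 696 genes gained counts, given without shares of silent genes. An FDR under 0.001 gave 27 higher channel genes, and 1887 higher and 1543 lower genes.

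With silence at 1 or fewer counts 0 channel genes and 172 genes gained counts. With 10 or fewer and a gain to 20 or more, 10 of 52 channel genes (19.2%) and 462 of 9253 genes did (4.99%, or 7.51% of the 6149 with a count). A gain to more than 3 counts gave 10 of 35 channel genes (28.6%) and 664 of 7768 genes (8.55%, or 14.2% of the 4664 with a count). A gain to 20 or more gave the same 3 channel genes (8.57%) and 183 of all genes (2.36%, or 3.92% with a count). The distance from all genes thus depended on the limit. Leaving out 1 library at a time gave 34 to 56 higher and 6 to 9 lower channel genes, 2351 to 5210 higher and 1933 to 4560 lower genes, 3 to 10 channel genes and 334 to 375 (473 without the Het control) of all genes that gained counts, and 0 for genotype.

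With the embryo as a block, 56 channel genes were higher and 8 lower (4999 and 4487 of all genes). Cacng4 lost its call (FDR 0.0186, range over the alternatives 2.22e-06 to 0.0244), and 8 other channel genes passed, among them Kcnn3 (FDR 0.00272, range 4.99e-07 to 0.425) and Kcnj11 (0.00605, range 0.00234 to 0.0502). None of the 26 changed its call. The interaction with this block gave 16. With the repeated doxorubicin library read as KO embryo 3 in the block for doxorubicin against control, 49 of the 57 called channel genes kept their call. With it read as KO embryo 2, 56 did, and 0 reversed in either reading. The block in the interaction, the leaving out of libraries for genotype, the library-size scaling and the filter over treatment were chosen after seeing the data. Upper-quartile scaling moved the median of all genes to 0.21, DESeq2 to 0.30 and the filter of 1 count to 0.23; channel gene medians were 1.85, 1.83 and 1.66. At 15560728 to 24122414 counts per library, levels under 0.123 to 0.168 CPM could not be told from 0. The cause of these shifts was not tested.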
